A study of Mus musculus with 10 samples.

Results

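Each of 7 genes of the cell division machinery carried 1 listed ACA cleavage site. How far the cutting of these sites differed between Mettl3 genotypes and between stages varied widely from site to site. The genes were Foxm1, Cdca4, Mdm2, Tfdp2, Cenpl, Pmf1 and Cep57. A site was taken as theirs where its 11 deposited bases occur in a transcript of the gene on the same chromosome and strand, within 100 nt of the deposited transcript position. This gave 7 of the 1626 sites in the table, 1 per gene. In all, 1423 sites were given a gene, with 1232 genes among them. The genes were picked with the efficiencies already known, so every difference below describes them and none is a test. The label of the set holds in part: Cenpl and Pmf1 are kinetochore genes, 4 of the others regulate cell cycle transcription or p53, and Cep57 belongs to the centrosome.

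The table comes from mouse embryonic stem cells (ESC) and from embryoid bodies (EB), aggregates in which stem cells differentiate, grown here for 9 days in serum medium without LIF or inhibitors. Each stage has wild-type (WT) cells and cells whose Mettl3 genotype is given as Metll3-/-, spelled so in the labels and called KO here. All cells descend from stem cells expanded on irradiated fibroblast feeders and then passaged on gelatin in medium with LIF, CHIR99021 and PD0325901. The 10 libraries of polyA RNA are 3 ESC WT, 3 ESC KO, 2 EB WT and 2 EB KO. Whether replicates are separate cultures or lines is not stated.

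Mettl3 is the catalytic subunit of the complex that writes N6-methyladenosine (m6A), a mark on messenger RNA that often lies near the stop codon and in long exons and that can shorten the life of a transcript. The bacterial RNase MazF cuts RNA before ACA and spares the site when its first A is methylated, so less cutting in WT than in KO is how this type of assay reads methylation. No label used here names the enzyme. Cell cycle genes are made in waves: E2F and DP factors drive genes of DNA synthesis, FOXM1 drives genes of mitosis, MDM2 holds p53 in check, and kinetochore proteins tie chromosomes to the spindle. Mouse stem cells divide fast, with a short first gap phase, and slow down as they differentiate.

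The deposited value is a cleavage efficiency, a fraction from 0 for a site never cut to 1 for a site always cut. There is 1 value per site and group, so no value has an SD or an n over libraries, and no p-value could be computed. The reads behind each value are unknown. Over all listed sites the median was 0.437 for WT and 0.811 for KO in ESC, and 0.542 for WT and 0.819 for KO in EB. As a measure of size, the EB and ESC columns of KO lay within 0.166 of each other at 95% of sites, which joins measurement error and any effect of stage. The table holds no expression values, so neither the knockout nor the level of any transcript was checked. Of the cell type markers looked up, those of stem cells, fibroblasts, mesoderm and ectoderm had no named site, and 2 endoderm markers (Gata4 and Sox17) had one, so the table does not check the identity of the cells.

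The 7 sites are shown because the values below belong to these bases. Each line gives 29 bases, 5′ to 3′, of the GENCODE M21 coding transcript on which the region of the site was read. The deposited 11 bases lie inside it, with the 5-base core in capitals. The A at base 15 is the one whose methylation would block the cut.
Foxm1: gcagcctgaggaGGACAtagcacacttag
Cdca4: cctctgggagatGGACAgcccacaagaaa
Mdm2: ggaggaaacgcaGGACAaagacgagagtg
Cenpl: tggctgctatgtGGACAgcatgcaaaatg
Cep57: gatgtacgtactGGACAtgagcagacttt
Tfdp2: tccccagaataaAGACAggagagaactca
Pmf1: ggacgccatagtAGACActttcctccaga
The core GGACA was present at 5 sites and at 62.5% of the named sites, while Tfdp2 and Pmf1 had AGACA. The Tfdp2 site starts right after the end of its reading frame: the TAA just before the capitals is the stop codon, and the A is 3 nt past it. Only 3 of the 1423 named sites lay at that distance from a stop codon. In Foxm1 and Cdca4 another ACA follows 7 nt downstream, within the bases shown. A second ACA within 20 nt downstream was present at 15.5% of the named sites.

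The deposited positions of the sites, in the mm9 build, fell on 6 chromosomes. Foxm1 was at chromosome 6, position 128323113 on the plus strand, and Cdca4 at chromosome 12, position 114059884 on the minus strand. Mdm2 was at chromosome 10, position 117127480, minus strand. Tfdp2 was at chromosome 9, position 96218393, plus strand, and Cep57 on the same chromosome at position 13612998, minus strand. Cenpl was at chromosome 1, position 163013294, plus strand, and Pmf1 at chromosome 3, position 88214111, minus strand. The first 5 of these lay in the last exon of every coding transcript that holds them. Of all named sites, 50.6% lay in the last exon of the transcript on which their region was read.

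In the coding sequence lay 5 of the sites and in the 3′ UTR 2, those of Tfdp2 and Cep57, beside 58.1% and 31.4% of the named sites. All coding transcripts of a gene placed its site in the same region. All but 1 of the sites were far from exon junctions, at 187 nt (Tfdp2) to 440 nt (Cdca4) from the nearest. The site of Pmf1 was the exception, in the first exon and 34 nt before its end. Of all named sites, 68.6% lay more than 100 nt from a junction. The 2 sites after the stop codon were close to it, at 3 nt in Tfdp2 and 53 nt in Cep57. Those before it were 214 nt from the end of the reading frame in Mdm2, 280 nt in Cdca4 and 871 nt in Foxm1. Cenpl and Pmf1 have coding transcripts with different ends, and on the transcripts used the distances were 359 nt and 283 nt. None of the transcripts had all of its candidate sites listed: the Foxm1 transcript holds 9 GGACA or AGACA sequences, that of Mdm2 9, that of Cdca4 7 and that of Tfdp2 15, with 1 listed in each.

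**Figure D1:**
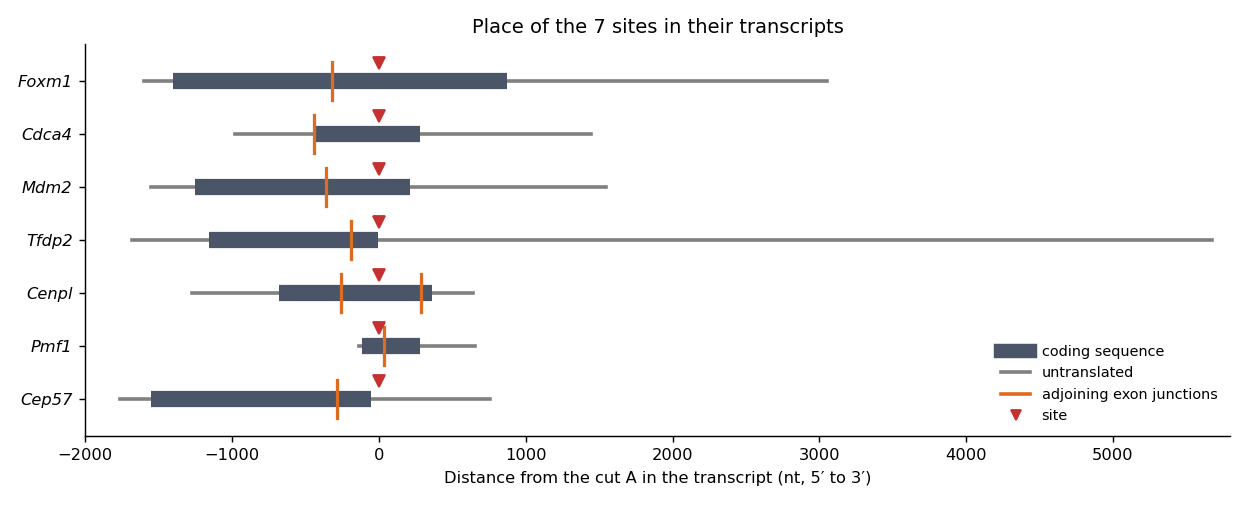
Transcripts of the 7 genes aligned at the cut A (distance in nt, 5′ to 3′), with the coding sequence as a thick bar, untranslated parts as a thin line, the exon junctions next to the site in orange and the site as a red triangle. The Pmf1 site lies 34 nt from a junction, while the nearest junctions of the other 6 sites are 187 to 440 nt away.

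Whether a site was cut less where Mettl3 was present was first asked in stem cells. In ESC, 5 of the 7 sites were higher in KO by at least 0.10, 1 was within that size and 1 was lower. Over all sites, 55.4% were higher and 2.58% lower by that size; since the genes were picked with this difference known, nothing is read from the counts. The median of the members was 0.599, beside 0.130 over all 1046 sites with both values. The 7 values ran from −0.182 in Pmf1 to 0.911 in Cdca4.

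At 3 of the sites the ESC columns were close to a full switch. Cdca4 encodes a nuclear regulator of E2F-dependent transcription, and its site was at 0.0361 in ESC WT and 0.947 in ESC KO. Foxm1, the transcription factor gene of the mitotic programme, was at 0.100 and 0.952. Cep57, which encodes a centrosomal protein that stabilises microtubule attachment, was at 0.125 and 0.973. Read as a ratio, the WT efficiency was 3.82% of the KO efficiency at Cdca4, 10.5% at Foxm1 and 12.8% at Cep57, beside a median of 74.7% over the 1025 sites with a KO value above 0. The differences of 0.911, 0.852 and 0.848 ranked 2, 15 and 16 from the top among 1046 sites. Cdca4 and Foxm1 are the sites with a second ACA 7 nt away, whereas the nearest other ACA of Cep57 is 53 nt away.

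Mdm2 and Cenpl were intermediate in ESC. Mdm2 encodes the ubiquitin ligase that marks p53 for degradation, and its site was at 0.347 in ESC WT and 0.947 in ESC KO, a difference of 0.599. Cenpl, a subunit of the inner kinetochore network on centromeric chromatin, was at 0.132 and 0.611, a difference of 0.480. The KO values of these 2 sites were unlike: that of Mdm2 lay at percentile 86.8 of the ESC KO column and that of Cenpl at percentile 32.1. The efficiency of Cenpl was thus below 1 even in KO, where the median over all sites was 0.811. A difference of 0.480 left the Cenpl WT value at 21.5% of the KO value.

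Tfdp2 and Pmf1, the 2 sites with the AGACA core, had the smallest and the opposite difference. Tfdp2 encodes a DP subunit that pairs with E2F factors to bind DNA, and its site was at 0.773 in ESC WT and 0.868 in ESC KO. The difference of 0.0949 was below the size counted here and at percentile 43.6 of all sites. Pmf1 encodes a subunit of the MIS12 complex, which links the inner kinetochore to the microtubule-binding NDC80 complex. Its site was at 0.644 in ESC WT and 0.462 in ESC KO, a difference of −0.182 and 1037 in rank of 1046. Centring the columns on their medians, taken over the 759 complete sites (those with all 4 values), removes 0.373 from every difference in ESC; relative to that shift the 5 GGACA sites were still above 0 and Tfdp2 was at −0.279.

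**Figure D2:**
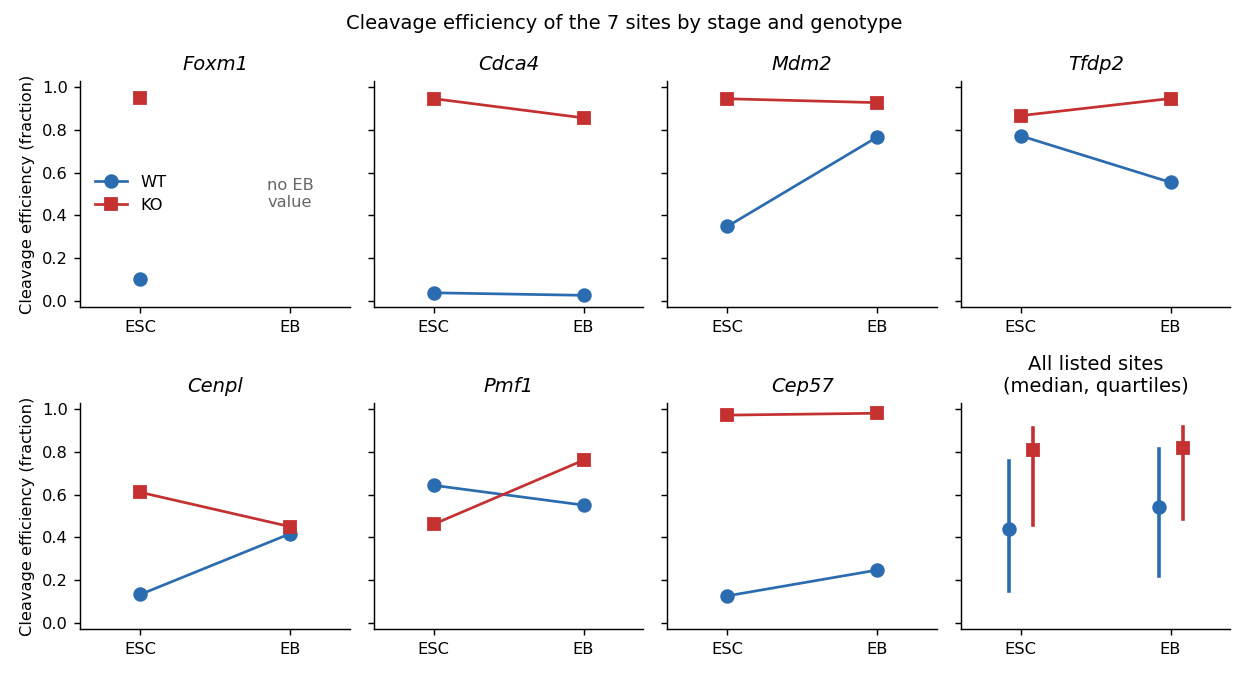
Cleavage efficiency (fraction) in ESC and EB, 1 panel per gene, with WT as blue circles and KO as red squares, 1 value per group and no error; the last panel gives the median and quartiles over all listed sites. The lines of Cdca4 and Cep57 stay far apart in both stages, those of Mdm2 and Cenpl close in EB, that of Tfdp2 opens, and those of Pmf1 cross.

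Whether the difference was present after differentiation was asked in EB. KO was above WT at all 6 sites with EB values and by 0.10 or more at 5, where 41.9% of all 855 sites were higher and 5.96% lower by that size. The median of the members was 0.302, beside 0.0638 over all sites. Foxm1 had no value in EB WT or EB KO, and so its difference is known in ESC alone. The other 6 sites had all 4 values, as did 759 of the 1626 sites.

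Cdca4 and Cep57 kept the wide gap. Cdca4 was at 0.0244 in EB WT and 0.857 in EB KO, a difference of 0.833 that ranked 7 among 855 sites. Cep57 was at 0.246 and 0.982, a difference of 0.736 and 25 in rank. The WT value was 2.85% of the KO value at Cdca4 and 25.1% at Cep57, where it had been 12.8% in ESC. From ESC to EB the KO minus WT difference moved by −0.0785 at Cdca4 and by −0.112 at Cep57.

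The other 4 sites had different orders in EB. Tfdp2 was at 0.555 in EB WT and 0.948 in EB KO, a difference of 0.393. Pmf1 was at 0.551 and 0.762, a difference of 0.211, with KO now the higher. Mdm2 was at 0.767 and 0.929, a difference of 0.162. Cenpl was at 0.417 and 0.450, a difference of 0.0333, which is below the size counted. The Mdm2, Pmf1 and Cenpl differences are smaller than the shift of 0.266 that subtracting the column medians over those 759 sites removes in EB. Relative to it they were −0.104, −0.0555 and −0.233. Among the 855 site differences in EB, whose median was 0.0638, they were at percentiles 65.6, 69.3 and 42.6.

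**Figure D3:**
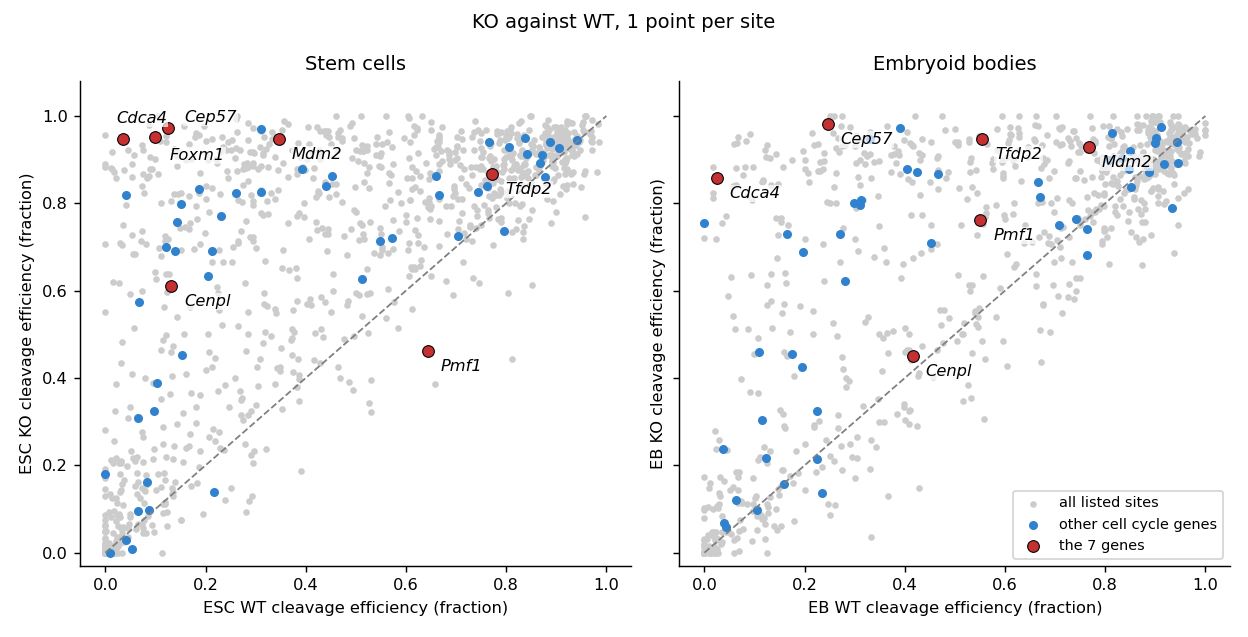
KO efficiency (vertical, fraction) against WT efficiency (horizontal, fraction), 1 point per site (left panel ESC, right panel EB), with all listed sites in grey, sites of other cell cycle genes in blue, the 7 genes in red and a dashed line of equal values. Pmf1 lies below the line in ESC and above it in EB, and Cenpl moves from a difference of 0.480 in ESC to 0.0333 in EB.

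The comparison of EB with ESC within WT asks how cutting differed with stage where Mettl3 was present. At 3 of 6 member sites EB was higher by at least 0.10 and at 1 it was lower, where 26.4% of 1071 sites were higher and 5.51% lower by that size. Mdm2 went from 0.347 in ESC WT to 0.767 in EB WT, a difference of 0.419 and 3 in rank of 1071. Cenpl went from 0.132 to 0.417, a difference of 0.285 and 22 in rank. Cep57 was higher by 0.121. Tfdp2 went the other way, from 0.773 to 0.555, a difference of −0.218 and 1065 in rank. Pmf1 differed by −0.0928 and Cdca4 by −0.0118.

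Within KO the same comparison shows how far the stages differ without Mettl3. At 1 of 6 sites EB was higher by at least 0.10 and at 1 lower, where 7.10% of 845 sites were higher and 11.1% lower. Cep57, Mdm2, Tfdp2 and Cdca4 differed by 0.00881, −0.0182, 0.0804 and −0.0902. For Mdm2 the difference between stages was therefore in the WT column: 0.419 in WT beside −0.0182 in KO. Cenpl differed by −0.161 in KO, close to the 0.166 within which 95% of sites lay. Pmf1 went from 0.462 in ESC KO to 0.762 in EB KO, a difference of 0.300 and 5 in rank of 845. At Pmf1 the larger change with stage was thus in KO, 0.300 beside −0.0928 in WT.

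Among the 759 sites with all 4 values, 4 of the 6 members stood at the ends of the change in the KO minus WT difference from ESC to EB. The median of that change over all sites was −0.0446. Pmf1 had the highest value of all sites, 0.393, and Tfdp2 was 4 from the top at 0.299. Cenpl was 2 from the bottom at −0.446 and Mdm2 4 from the bottom at −0.438. The genes were picked from a table in which these values stood, and their ranks describe the choice. On a logit scale, which stretches values near 0 and 1, the ranks were less extreme: 13 and 10 from the top for Pmf1 and Tfdp2, 18 and 21 from the bottom for Cenpl and Mdm2. No test of the change was possible, because neither stage has replicate values. The stages also differ in the number of libraries per genotype, 3 in ESC and 2 in EB, whose part in the change was not tested.

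**Figure D4:**
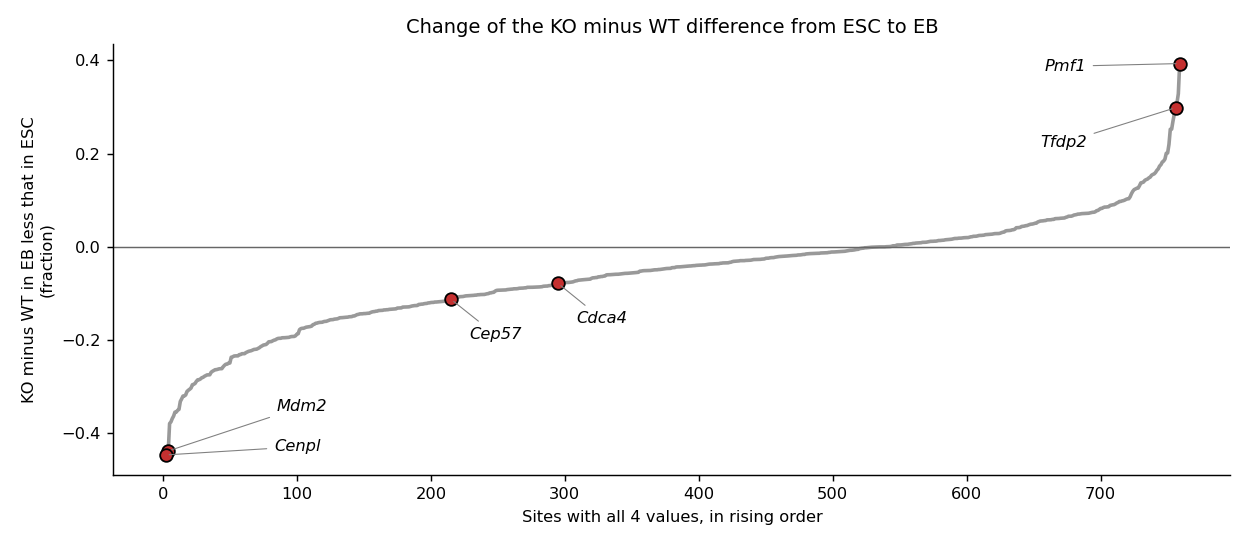
KO minus WT difference in EB less that in ESC (fraction, vertical) for the 759 sites with all 4 values in rising order (horizontal), as a grey line with the 6 members as red points. Cenpl at −0.446 and Mdm2 at −0.438 lie at the lower end, Tfdp2 at 0.299 and Pmf1 at 0.393 at the upper end, and Cdca4 and Cep57 between them.

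Core and distance to an exon junction gave classes of sites with different levels. Among named sites with the GGACA core more than 100 nt from a junction, the median KO minus WT difference was 0.329 in ESC (385 sites) and 0.228 in EB (314 sites). Among GGACA sites within 100 nt it was 0.0588 and 0.00419. Among AGACA sites farther than 100 nt it was 0.121 and 0.0393. Among AGACA sites within 100 nt it was 0.0321 in ESC (130 sites) and 0.00542 in EB (117 sites). Foxm1, Cdca4, Mdm2, Cenpl and Cep57 belong to the first class, Tfdp2 to the third and Pmf1 to the last. In EB, Tfdp2 at 0.393 and Pmf1 at 0.211 were above Mdm2 at 0.162 and Cenpl at 0.0333, so the members did not follow the order of the class medians there.

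Each site was then placed within its own class, as a description, since the members were picked with these values known. In ESC, Cdca4 lay at percentile 99.9 of its class, Foxm1 at 97.0, Cep57 at 96.8, Mdm2 at 77.8 and Cenpl at 64.3. Tfdp2, at percentile 45.8 of the AGACA sites far from a junction, was near their median of 0.121. Pmf1 was at percentile 1.15 of the AGACA sites near a junction, of which 5 of 130 were lower in KO by at least 0.10. In EB the places of 4 sites were other: Mdm2 lay at percentile 43.5 and Cenpl at 22.1 of their class, Tfdp2 at 91.2 and Pmf1 at 94.4. Cdca4 and Cep57 stayed high, at 98.2 and 94.7.

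The authors' table gives each site a class as well, CellRep_low, CellRep_intermediate, CellRep_high or highest, and how these were made is not stated. Pmf1 was in CellRep_low, Foxm1 in CellRep_intermediate and the other 5 in CellRep_high. These classes held 15.5%, 30.8% and 46.9% of the named sites. Foxm1, with 0.852 in ESC, had the second largest difference of the 7 and was not in CellRep_high. Tfdp2 was in CellRep_high with an ESC difference of 0.0949. None of the 7 was in the class named highest, which held 6.82% of the named sites.

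For each of the 6 sites with 4 values, the site of another gene with the most similar 4 values was sought among 651 named sites, by the largest difference in any column. Cdca4 was closest to a 3′ UTR site of Csnk1d (aatGGACAggc, chromosome 11, position 120824998, minus strand), with no column more than 0.0293 apart. Cep57 was closest to a 3′ UTR site of Cpsf2 (aaaGGACAtga, chromosome 12, position 103241435, plus strand), within 0.0305. Tfdp2 was closest to a coding site of Myef2 (gtgGGACAgtc), within 0.0655, and Mdm2 to a 3′ UTR site of Lsg1 (ggaGGACAcga), within 0.0892. For Cenpl and Pmf1 the nearest sites, in Champ1 (ttcAGACAgtg) and Rragb (aaaGGACAtgc), were farther, up to 0.111 and 0.147 away in a column. Both distances were still below the 0.166 within which the KO columns lay at 95% of sites. The 5-base core was the same in the pairs of Cdca4, Cep57 and Mdm2 and another in those of Tfdp2, Cenpl and Pmf1.

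The wider cell cycle was described with 382 other genes in 7 lists, of which 70 genes had 77 listed sites. In ESC, 47 sites had both values, of which 29 (61.7%) had the higher value in KO by at least 0.10 and none the lower, beside 55.4% and 2.58% of all sites. Their median was 0.166. In EB, 23 of 48 were higher (47.9%) and 1 was lower, beside 41.9% and 5.96% of all sites, with a median of 0.0919. These shares are near those of all sites and show nothing particular to cell cycle genes. The counts by list below rest on 3 to 11 sites each, with mixed cores and junction distances, and nothing is read from differences between lists. The lowest ESC value among the 47 sites was −0.0783, so Pmf1 at −0.182 was below all of them.

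In the p53 and DNA damage list, 3 of 4 sites were higher in ESC and 5 of 6 in EB. H2afx, the histone variant phosphorylated at DNA breaks, had the largest ESC difference there, in its 3′ UTR, from 0.261 in WT to 0.823 in KO, and was at 0.311 and 0.797 in EB. Mdm4, the partner of Mdm2 in restraining p53 and chosen here after its values were seen, had a coding site (gaaGGACAatg, chromosome 1, position 134888645, minus strand). It was at 0.310 (WT) and 0.825 (KO) in ESC and at 0.313 and 0.809 in EB. The Mdm4 site thus differed by 0.515 in ESC and 0.495 in EB, while the Mdm2 site differed by 0.599 and 0.162. Both have the GGACA core and lie in the coding sequence.

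In the centromere and kinetochore list, 4 of 6 sites were higher in ESC, and in EB 1 of 6 was higher and 1 lower. Cenps, a subunit of the CENP-T module of the inner kinetochore, had the largest ESC difference, at 0.140 in WT and 0.690 in KO, with no EB value. Cenpb, which binds centromeric repeats, was at 0.0667 and 0.574 in ESC and 0.108 and 0.459 in EB. Birc5, the survivin subunit of the chromosomal passenger complex, was at 0.0968 and 0.324 in ESC and 0.122 and 0.216 in EB. Cenpe, a kinetochore motor, was the 1 lower site in EB, at 0.933 in WT and 0.789 in KO. Cenpb, Birc5 and Cenpe were chosen after their values were seen.

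In the list of cyclins, CDKs and their regulators, 3 of 5 sites were higher in ESC and 3 of 4 in EB. Ccnd1, which encodes cyclin D1 of the first gap phase, had 2 sites 99 nt apart with different values. The coding site (tgtGGACAtct, chromosome 7, position 152118519, minus strand) was at 0.311 in ESC WT and 0.971 in ESC KO, and at 0.330 and 0.948 in EB. The 3′ UTR site (tggGGACAtgt, position 152118420), chosen after its values were seen, was at 0.217 and 0.139 in ESC and at 0.235 and 0.136 in EB. Both sites share the core, the transcript and the libraries, and only the coding site was higher in KO by at least 0.10. Their change with stage was small: the KO minus WT difference moved by −0.0419 and −0.0207, beside −0.438 for Mdm2.

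In the list of E2F and DREAM factors 2 of 3 sites were higher in ESC and 1 of 4 in EB. Mga, a repressor that acts with E2F6 and MAX, led with 0.0411 in WT and 0.818 in KO in ESC and a WT value listed at 0 in EB beside 0.756 in KO. In the list of centrosome, centriole and spindle genes 8 of 10 sites were higher in ESC and 8 of 11 in EB. A coding site of Numa1, which anchors spindle poles, led at 0.186 and 0.833 in ESC and 0.424 and 0.871 in EB. In the list of the anaphase-promoting complex, cohesin and condensin 6 of 10 sites were higher in ESC and 4 of 9 in EB, led by Mau2, a subunit of the cohesin loader, at 0.143 and 0.757 in ESC. In the list of DNA replication 3 of 9 sites were higher in ESC and 1 of 8 in EB. Orc1, a subunit of the origin recognition complex, led in ESC, at 0.231 and 0.771, and had no EB KO value.

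**Figure D5:**
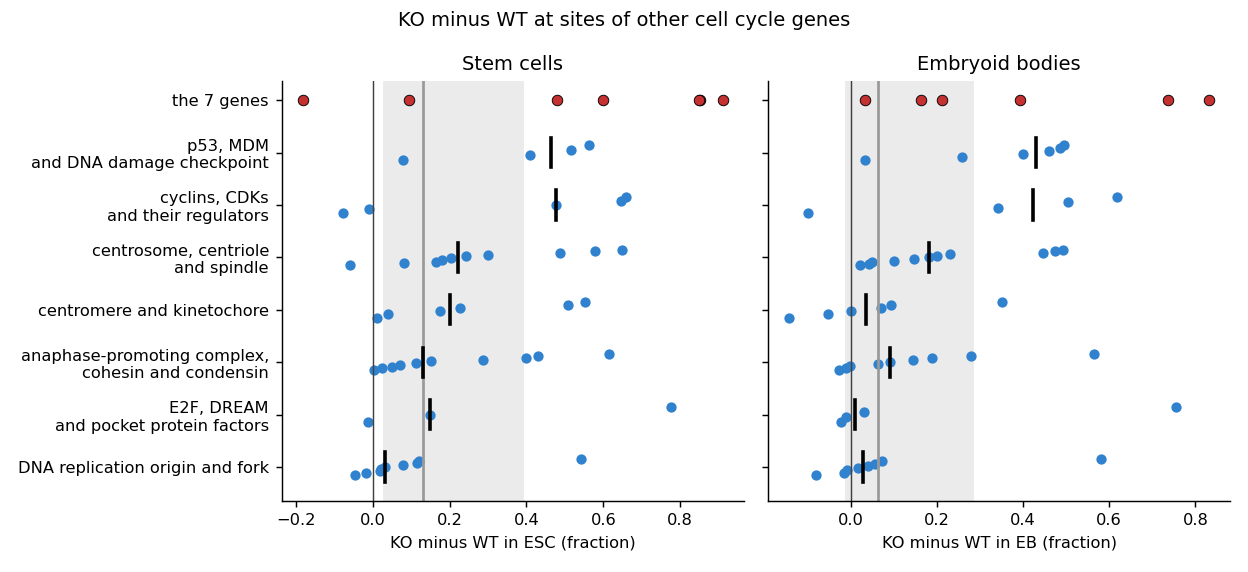
KO minus WT difference (fraction, horizontal) at sites of other cell cycle genes by list (blue points, black bar for the list median) and at the 7 genes (red) (left panel ESC, right panel EB); the grey band and line give the quartiles and median over all sites. List medians in ESC run from 0.0308 for DNA replication to 0.477 for cyclins and CDKs, each over 3 to 10 sites.

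Change with stage spanned a narrower range in the wider cell cycle than at the members. Over 41 list sites with all 4 values, the KO minus WT difference moved between −0.254 and 0.0610 from ESC to EB. The median was −0.0698, beside −0.0954 at the 6 members. Mdm2 and Cenpl lay below that range, Tfdp2 and Pmf1 above it, and Cdca4 at −0.0785 and Cep57 at −0.112 inside it. In WT the list sites differed between stages by −0.128 to 0.238. By at least 0.10, 12 of 53 (22.6%) were higher in EB and 2 lower, beside 26.4% and 5.51% of all 1071 sites. The members were picked with these values known, so their wider range is no result about their function.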

How the data were processed

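Efficiencies of cleavage at ACA sites in polyA RNA of mouse cells were taken from 1 table for the whole series. Per the file headers, the authors deposited, for each site, 1 efficiency for each group, as a fraction between 0 and 1, with position, strand, 11 bases, transcript identifier, transcript position and class. The submitters' processing notes name STAR 2.5.3a, bedtools 2.26.0 and mm9 without saying what each was used for. How reads were counted, the minimum depth and how libraries were pooled were not given in the sources used here. With no reads or depths given, no interval or test was made. The table held 0 value columns of no group.

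Sites were matched by sequence to GENCODE M21 transcripts within 100 nt and 10 Mb; a match was kept where 1 gene fitted best and its offset between builds equalled that of another gene among 3 neighbours on either side. The search was tried on simulated sites drawn from the same transcripts, all with the same offset between builds. That trial cannot show how the search does where the offset varies along a chromosome. On the transcript that gave the match, the nearest distance of a member to the deposited transcript position was 0 nt and the farthest 42 nt. Regions come from the coding transcript closest to that position. For Cenpl and Pmf1 this was another transcript than the one that gave the match. It puts the Cenpl site at base 1272, beside 1147 as deposited, which is outside the 100 nt used for matching. The Pmf1 site is at base 138 on it, beside 128 as deposited. Coordinates are as deposited, read as 1-based, and none was converted. With no mm9 genome at hand, the base they point to was not checked. Differences of fractions used no filter or pseudocount, and 0.10 or more was counted; percentiles and ranks are over all sites with a value. Figures were drawn with matplotlib 3.10.9. Members, lists and comparisons were chosen with earlier results of these data known. Named were all member sites, the highest and lowest site of each list beyond 0.10 in ESC, the most similar site to each member, and others marked in the text as chosen later. Alternatives were centring each column on its median over the 759 sites with all 4 values, a size of 0.20, a logit scale (limits 0.01 and 0.99, size 0.5), complete sites only, and matching within 20 nt.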

Additional observations from a re-analysis of the deposited data

Results flagged for a closer look

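Pmf1, the MIS12 complex gene, is given here because its KO minus WT difference had opposite directions in the 2 stages: −0.182 in ESC and 0.211 in EB. The difference between the stages was not tested, since each group has 1 value. Of the 759 sites with all 4 values, 2 were lower in ESC KO and higher in EB KO by at least 0.10 each, and 17 were the reverse.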

How the results depend on the processing

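No paired analysis was possible because each group has a single column, and no replicate could be left out for the same reason. Centring each column on its median over the 759 sites with all 4 values took 0.373 from each KO minus WT difference in ESC and 0.266 in EB, along with any shared effect of genotype. The member median then was 0.226 in ESC and 0.0358 in EB, with 3 EB sites still higher by 0.10; Mdm2, Pmf1 and Cenpl turned to −0.104, −0.0555 and −0.233 in EB, and Tfdp2 to −0.279 in ESC. The list medians turned to −0.207 in ESC and −0.174 in EB, with 13 and 12 sites higher. The shifts taken out by centring are larger than the median difference over all sites, 0.130 in ESC and 0.0638 in EB. At a size of 0.20, 1 member differed between stages in KO, where 10 of all 845 sites were higher and 15 lower in EB. Matching within 20 nt dropped Foxm1, Mdm2 and Tfdp2 and left 3 sites higher in ESC and 3 in EB, with an EB median of 0.473. With complete sites only, each count stayed within 1.5 times and each median kept its direction, and on the logit scale each member kept its direction. Tfdp2 in ESC, at 0.656 on the logit scale, passed the size of 0.5, so 6 member sites were higher there instead of 5. The counts after centring, within 20 nt and on the logit scale have no share over all sites beside them, so nothing is read from them. Unknown depth limits every value.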
